A study of Mus musculus with 6 samples.

Results

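The cytosolic ribosomal protein genes were followed across NKp46+ cells of 3 mouse tissues. The genes were chosen by name: all probes whose gene symbol starts with Rpl or Rps and a digit, or is Rplp0, Rplp1, Rplp2 or Rpsa, without the Rps6k kinases. The rule found 109 probes of 77 genes among the 33717 gene symbols of the array, and 22 of the genes had several probes. The probe with the highest mean signal stood for each gene. Of the 77 genes, 42 encode proteins of the large subunit, 29 proteins of the small subunit and 3 the acidic stalk (Rplp0, Rplp1 and Rplp2), and 3 are paralogs (Rpl36al, Rpl3l and Rps27l). No probe carried the symbol Rpsa. A level could be tested for 75 genes. The probes of Rpl3l, a paralog of Rpl3 known from striated muscle, and of Rplp0 were detected on none of the 6 arrays. The definitions in the files name a ribosomal protein for these symbols, apart from probes that carry no definition.

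The cells came from the intestine (gut lamina propria), the skin and the spleen, with 2 arrays per tissue. All mice were male, 12 weeks old and RAG-2-KO on C57BL/6, so that every group lacked T and B cells of its own. The sort kept CD45+ cells with no CD3 that carried Nkp46, an activating receptor found on natural killer (NK) cells and some other innate lymphoid cells, and a marker that the labels spell NK11. The labels give neither the number of mice behind a sample nor whether the replicates came from separate mice, so the spread that the p-values rest on may be technical only. The 3 arrays of replicate I shared slide 1, and those of replicate II slide 2.

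The ribosome translates mRNA in the cytosol from a small subunit, which reads the mRNA, and a large subunit, which joins the amino acids. Their proteins are made in nearly equal numbers, and their mRNAs are among the most abundant in any growing cell. In vertebrates these mRNAs typically begin with a C followed by an unbroken run of pyrimidines, the terminal oligopyrimidine (TOP) motif, through which mTORC1 and LARP1 control their translation. Resting lymphocytes are known to raise ribosome production when they are activated to grow and divide.

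The start of the gene is shown for 8 members, since the TOP tract is a sequence known for this family that the symbol rule did not use. All 8 starts shown hold a tract, but not all members do. Rpl22 and Rpl23, also higher in intestine than in spleen, had none within 5 bases of their annotated starts. Rps18, Rps15a, Rpl13a and Rpl18 were higher in intestine than in spleen, Rps27l was lower there and Rps27 is its close relative, Rps6 is the target of the S6 kinases, and Rplp2 is a stalk protein. Each line gives 20 bases before and 20 from the annotated start, from RefSeq (GRCm38.p6), 5′ to 3′ on the gene's strand. Capitals mark a C within 5 bases of the start and the run of at least 4 further C or T bases that follows it.
Rps18: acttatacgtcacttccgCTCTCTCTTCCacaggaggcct
Rps15a: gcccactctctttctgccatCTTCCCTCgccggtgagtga
Rpl13a: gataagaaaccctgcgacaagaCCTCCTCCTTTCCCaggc
Rpl18: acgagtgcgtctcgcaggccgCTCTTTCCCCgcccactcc
Rps27: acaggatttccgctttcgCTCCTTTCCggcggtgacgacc
Rps27l: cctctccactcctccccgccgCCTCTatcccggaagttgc
Rps6: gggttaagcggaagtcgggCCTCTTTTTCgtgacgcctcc
Rplp2: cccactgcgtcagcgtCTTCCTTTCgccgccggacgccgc
The windows lie at chr17:33955646-33955685 (Rps18, minus strand), chr7:118116128-118116167 (Rps15a, minus), chr7:45128726-45128765 (Rpl13a, minus), chr7:45718051-45718090 (Rpl18, plus), chr3:90213629-90213668 (Rps27, minus), chr9:66946066-66946105 (Rps27l, plus), chr4:86857348-86857387 (Rps6, minus) and chr7:141447631-141447670 (Rplp2, plus). The tract had 14 bases in Rpl13a, 11 in Rps18, 10 in Rpl18 and Rps6, 9 in Rps27 and Rplp2, 8 in Rps15a and 5 in Rps27l, of which the more upstream of 2 annotated starts is shown. Windows were held for 56 of the 77 genes. A tract within 5 bases of the start was found in 26 of these 56 genes (46.4%), against 21.2% of the 27025 genes with a window. A tract exactly at the annotated start was found in 23.2% of the ribosomal protein genes and in 3.01% of all genes. The YY1 motif (AAGATGGC, either strand, in the 250 bases before to 50 after the start) was held by 8.93% of the ribosomal protein genes and 3.19% of all genes, and the ETS motif (CCGGAAGT, either strand, same window) by 19.6% and 4.31%. Matches of the 2 motifs and of the tract were counted separately and may overlap, and a match describes the letters of the window only.

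On the deposited scale, on which every array has a mean signal of 83.1, the ribosomal protein genes took the most of the total signal in intestine and the least in spleen. Summed over the 77 probes, they held 11.8% and 12.6% of all probe signal on the intestine arrays, 10.8% and 10.7% on the skin arrays, and 9.13% and 8.94% on the spleen arrays. The arrays of the tissues did not overlap, and with 2 arrays each no exact permutation test between a pair of tissues could pass the threshold of 0.05. Among the 100 brightest probes of an array, 31 and 33 were ribosomal protein probes in intestine, 27 and 30 in skin, and 33 and 31 in spleen. More probes of any kind were detected on the spleen arrays: 16549 and 15279 of 46643 in intestine, 15196 and 16477 in skin, and 18266 and 18530 in spleen. The part of this difference in the shares was not tested. A sorted sample gives RNA in bulk, so a change in the share of some cells and a change in the RNA per cell cannot be told apart.

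**Figure D1:**
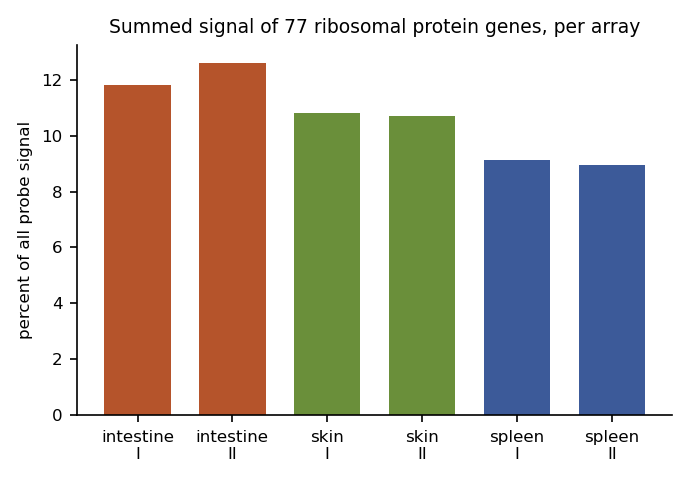
Summed deposited signal of the 77 ribosomal protein genes (1 probe per gene) as a percent of all probe signal, 1 bar per array, for intestine, skin and spleen (replicates I and II). The intestine arrays stand at 11.8% and 12.6%, the skin arrays at 10.8% and 10.7% and the spleen arrays at 9.13% and 8.94%.

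The sort markers were checked in the same arrays. Ncr1, which encodes NKp46, was detected on all 6 arrays, with signals of 10.8 and 14.7 in intestine, 33.1 and 32.4 in skin, and 88.2 and 52.9 in spleen, and Cd3e was detected on none. Of 10 tested NK and sort genes, 9 were lower in intestine than in spleen, 4 were lower in skin than in spleen, and 7 were lower in intestine than in skin. Red blood cell and platelet markers moved with the tissue, and 5 of 5 tested ones were lower in both intestine and skin than in spleen. Their 9 probes summed to 683 and 1110 as the lowest and highest array in intestine, 780 and 1040 in skin, and 11700 and 17600 in spleen. Neutrophil and mast cell markers summed to between 1390 and 1420 in intestine, 130 and 138 in skin, and 290 and 416 in spleen, and the fibroblast and endothelium markers to between 632 and 762 in intestine, 246 and 257 in skin, and 246 and 253 in spleen. Macrophage, monocyte and dendritic cell markers summed to between 223 and 274 in intestine, 368 and 398 in skin, and 430 and 470 in spleen, gut epithelium markers to between 115 and 178, 111 and 118, and 72.7 and 104 in the same tissues, and T cell markers to between 3020 and 3230, 3760 and 3910, and 3570 and 3620. The B and plasma cell markers stayed at 26.7 or less and the keratinocyte markers at 44.2 or less on every array. The part of these cells in the ribosomal protein differences was not tested.

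Differences between tissues were tested with limma on log2(signal + 16) after quantile normalization, over 14187 genes, with Benjamini-Hochberg adjusted p-values under 0.05 as the threshold. All log2 differences below are from this fit unless the deposited scaling is named. The added 16 shrinks the change of dim probes, but their differences after quantile normalization could also exceed those with the deposited scaling. In intestine against spleen the 2 scalings gave 0.60 and 0.16 for Rps24, and 0.94 and 0.58 for Rps18. A level of one probe is not set against that of another. Many ribosomal protein probes are among the brightest of the array, and quantile normalization gives all arrays the same bright end, so counts with the deposited scaling are given as well. The 2 scalings also move the median of all genes, which was -0.05 for intestine against spleen, -0.01 for skin against spleen and -0.07 for intestine against skin after quantile normalization, and -0.25, -0.13 and -0.18 with the deposited scaling.

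In intestine against spleen, 12 ribosomal protein genes rose, 1 fell and 62 of 75 did not pass the test. Over all genes tested, 20.9% were called higher and 28.3% lower, so that the genes called were 17.3% of the ribosomal protein genes and 49.2% of all genes. Their median log2 difference was 0.05, which is 0.10 above that of all genes, and 67 of the 75 lay within 0.50 of 0. The interquartile range was 0.36, against 0.82 for all genes. With the deposited scaling 32 rose and 1 fell, where 14.6% of all genes were called higher and 42.3% lower, and the median was 0.31, or 0.56 above that of all genes. The deposited signals of both intestine arrays lay above those of both spleen arrays for 57 genes and below for 2, and overlapped for 16. Over all genes 26% lay above and 54.5% below. The number called with quantile normalization was 6 with spleen replicate I left out and 5 without spleen replicate II, where the lone spleen array is assumed to vary like the other tissues.

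**Figure D2:**
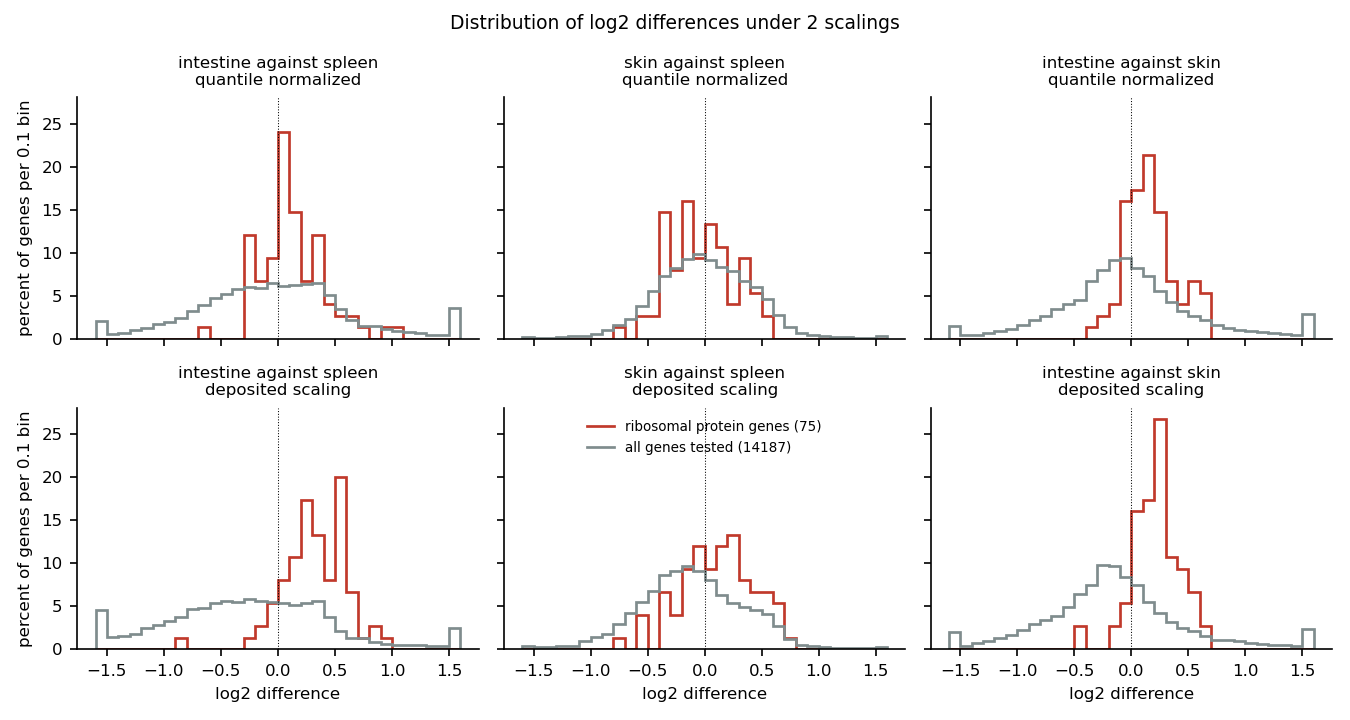
Percent of genes per 0.1 of log2 difference for the 75 tested ribosomal protein genes (red) and all 14187 genes tested (grey), in 3 comparisons (columns), quantile normalized (top) and with the deposited scaling (bottom), where the outermost bins also hold all values beyond them. The red curve is the narrower in each panel, with interquartile ranges of 0.36 against 0.82 in intestine against spleen and 0.40 against 0.56 in skin against spleen after quantile normalization, and lies to the right of the grey one with the deposited scaling.

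Among the genes of the small subunit, 5 of 29 rose in intestine against spleen. Rps18, a protein of the head of the small subunit, had signals of 44.5 and 51.1 in intestine, against 25.2 and 27.9 in spleen. Both intestine arrays were above both spleen arrays, and the log2 difference was 0.94 ± 0.14 (SE, limma adjusted p = 3.79e-04). That probe is dim. A brighter probe, written RPS18 in capitals and outside the rule, had 9950 and 13800 in intestine and 7430 and 8040 in spleen. Its log2 difference was 0.16 (limma adjusted p = 0.402). With the deposited scaling the brighter probe differed by 0.60 (limma adjusted p = 0.00992) and the dim one by 0.58 (limma adjusted p = 0.00417). Rps15a had 45.8 and 15.1 in intestine, against 9.67 and 4.97 in spleen. Its arrays did not overlap but differed widely within intestine, with a log2 difference of 1.02 ± 0.29 (SE, limma adjusted p = 0.0143). The call was lost with an offset of 64 and without spleen replicate II. Over the 15 alternatives the difference lay between 0.45 and 1.63. Rps24 had 77.4 and 70.6 in intestine, against 69.6 and 59.6 in spleen, and a log2 difference of 0.60 ± 0.13 (SE, limma adjusted p = 0.00472). Its arrays lie close together, the call was absent with the deposited scaling (0.16, limma adjusted p = 0.348) and without spleen replicate II (limma adjusted p = 0.0694), and its 2 other kept probes gave -0.27 and 0.45. Rps2, at 10400 and 10700 in intestine against 6290 and 5910 in spleen, differed by 0.39 ± 0.13 (SE, limma adjusted p = 0.0317), and lost the call without spleen replicate I (limma adjusted p = 0.0974), spleen replicate II (0.213) or intestine replicate I (0.0658).

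Among the genes of the large subunit, 7 of 42 rose in intestine against spleen. Rpl22, a protein of the large subunit that mouse T cell development depends on, had signals of 267 and 228 in intestine, against 180 and 199 in spleen. Both intestine arrays were higher, with a log2 difference of 0.73 ± 0.14 (SE, limma adjusted p = 0.00179). With the deposited scaling its difference was 0.36 (limma adjusted p = 0.0515), which did not pass. Rpl13a, known in human monocytes for leaving the ribosome to silence inflammatory mRNAs and often used as a reference gene, had 779 and 851 in intestine, against 576 and 610 in spleen. The groups did not overlap, the log2 difference was 0.60 ± 0.14 (SE, limma adjusted p = 0.00543), and its other probe gave 0.73. Without spleen replicate I the call of Rpl13a was absent (limma adjusted p = 0.0668). The other large subunit genes called were Rpl12 (0.54), Rpl32 (0.45), Rpl29 (0.40), Rpl18 (0.40) and Rpl23 (0.38). All 5 lost the call without either spleen array, with limma adjusted p-values of 0.06 to 0.135 without replicate I and 0.0816 to 0.27 without replicate II. Rpl18 also lost it without either intestine array, Rpl29 without intestine replicate I, and Rpl23 and Rpl32 without intestine replicate II or either skin array (limma adjusted p = 0.0502 to 0.149). These 4 also lost it with no filter on detection, and Rpl29 lost it with the deposited scaling (0.21, limma adjusted p = 0.228). Of the stalk genes, Rplp1 had a log2 difference of 0.05 (limma adjusted p = 0.774) and Rplp2 of 0.45 (limma adjusted p = 0.0526). The TOP tract lay near the start in 7 of the 9 genes that rose and have a window, and in 18 of 44 that did not pass, with 1 of 1 for the gene that fell. In intestine against skin it lay near the start in 5 of 9 that rose and in 21 of 45 that did not pass, and in skin against spleen in 2 of 2 that rose, 1 of 2 that fell and 23 of 50 that did not pass.

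The gene that fell was Rps27l, the paralog of Rps27 that is known as a target of p53. Its signals were 469 and 414 in intestine, 467 and 506 in skin, and 846 and 772 in spleen. Both gut arrays and both skin arrays were below both spleen arrays. The log2 difference was -0.66 ± 0.13 in intestine against spleen (SE, limma adjusted p = 0.00249) and -0.57 ± 0.13 in skin against spleen (SE, limma adjusted p = 0.0158), and it was -0.85 and -0.72 with the deposited scaling. In intestine against spleen it was called in all 15 alternatives that were run, and in skin against spleen it was lost without spleen replicate I (limma adjusted p = 0.165), spleen replicate II (0.0985) or skin replicate I (0.0916). Intestine and skin differed by -0.09 (limma adjusted p = 0.637). Rps27, the canonical gene, had 8790 and 10100 in intestine, 8660 and 8730 in skin, and 6860 and 6480 in spleen. Its log2 differences were 0.10 in intestine and 0.17 in skin against spleen, and neither passed (limma adjusted p = 0.551 and 0.365). Rps27l was the only member called lower in both intestine and skin than in spleen.

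**Figure D3:**
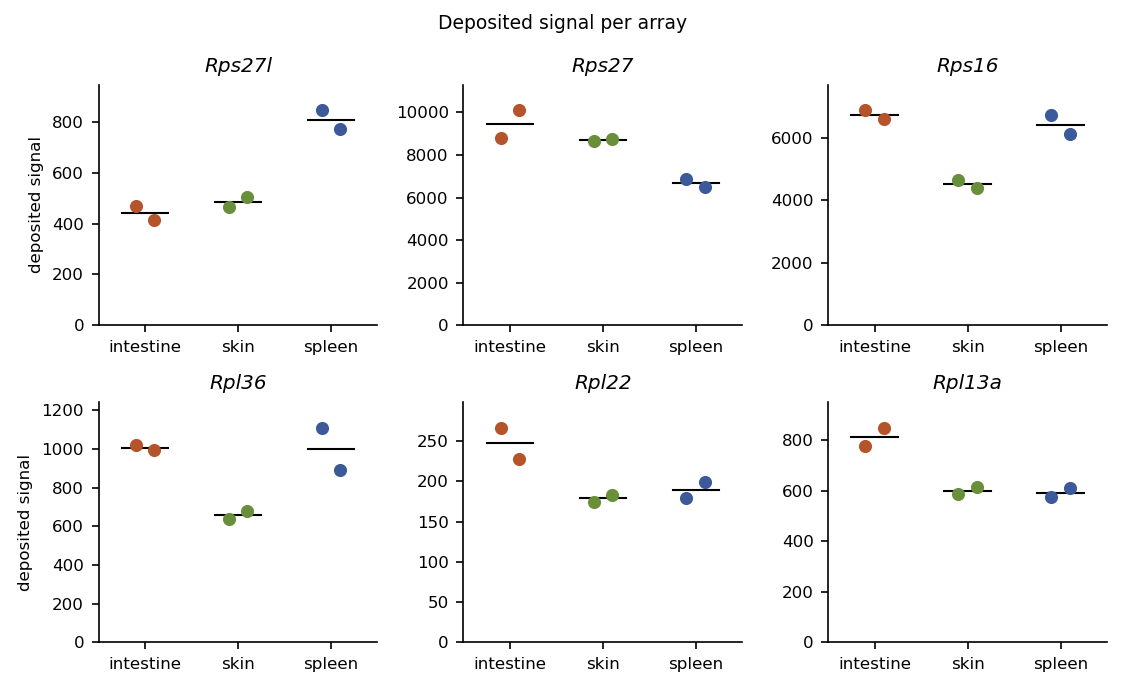
Deposited signal of 6 ribosomal protein genes on each of the 6 arrays (points) with the mean of the 2 arrays of a tissue (line), each panel with its own axis from 0. Rps27l lies at 414 to 506 in intestine and skin and at 772 and 846 in spleen, while Rps16 and Rpl36 are lower in skin and Rpl13a and Rpl22 higher in intestine than in the other tissues.

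In skin against spleen, 3 ribosomal protein genes rose, 5 fell and 67 did not pass, where 12.7% of all genes were called higher and 11.5% lower. The genes called were 10.7% of the ribosomal protein genes, against 24.3% of all genes. The median log2 difference was -0.05, which is -0.04 relative to all genes, and 70 of the 75 lay within 0.50 of 0. The split turned with the scaling. With the deposited scaling 15 rose and 4 fell, where 12.1% and 22.4% of all genes did, so that 37.5% of the calls were higher after quantile normalization and 78.9% with the deposited scaling, and the median was 0.12, or 0.25 above that of all genes. Both skin arrays lay above both spleen arrays in deposited signal for 39 genes and below for 21, against 27.6% and 46.8% of all genes. The count of 8 calls depended on single arrays. Fewer members were called with any 1 of the spleen or skin arrays left out, and more without either intestine array. Calls over all genes moved the same way in these fits, so the loss is not particular to the ribosomal protein genes. The member median lay between -0.09 and 0 without each array.

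Rps16 was the gene most reduced in skin. Its signals were 6890 and 6610 in intestine, 4650 and 4390 in skin, and 6730 and 6120 in spleen. Both skin arrays were below all others, and the log2 difference from spleen was -0.75 ± 0.14 (SE, limma adjusted p = 0.00615), or -0.50 with the deposited scaling (limma adjusted p = 0.0169). The call was lost without spleen replicate I (limma adjusted p = 0.0947). Rpl36 had 639 and 677 in skin, against 1110 and 890 in spleen, and differed by -0.46 ± 0.15 (SE, limma adjusted p = 0.0452). Its skin arrays were the lowest of the 6. Rpl7 had 3330 and 3660 in skin, against 4140 and 4380 in spleen, and differed by -0.50 ± 0.14 (SE, limma adjusted p = 0.0309), but by -0.28 with the deposited scaling (limma adjusted p = 0.148). Rpl36 and Rpl7 each lost the call when any 1 of the 4 skin and spleen arrays was left out, with limma adjusted p-values of 0.06 to 0.353.

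The 3 genes that rose in skin against spleen were Rpl32, Rpl31 and Rps2. Rpl32 had 4950 and 5310 in skin, against 3480 and 2950 in spleen, and differed by 0.52 ± 0.15 (SE, limma adjusted p = 0.0352). Rps2 had 9520 and 9540 in skin, against 6290 and 5910 in spleen, and differed by 0.42 ± 0.13 (SE, limma adjusted p = 0.0423). These 2 genes were also higher in intestine than in spleen. Rpl31 had 145 and 166 in skin, against 133 and 123 in spleen, and its log2 difference of 0.50 ± 0.15 (SE, limma adjusted p = 0.0413) was 0.25 with the deposited scaling (limma adjusted p = 0.238). All 3 calls were lost when any 1 of the 4 skin and spleen arrays was left out, with limma adjusted p-values of 0.104 to 0.274. The stalk gene Rplp1 changed its side with the scaling, with -0.02 after quantile normalization (limma adjusted p = 0.941) and 0.43 with the deposited scaling (limma adjusted p = 0.0297).

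**Figure D4:**
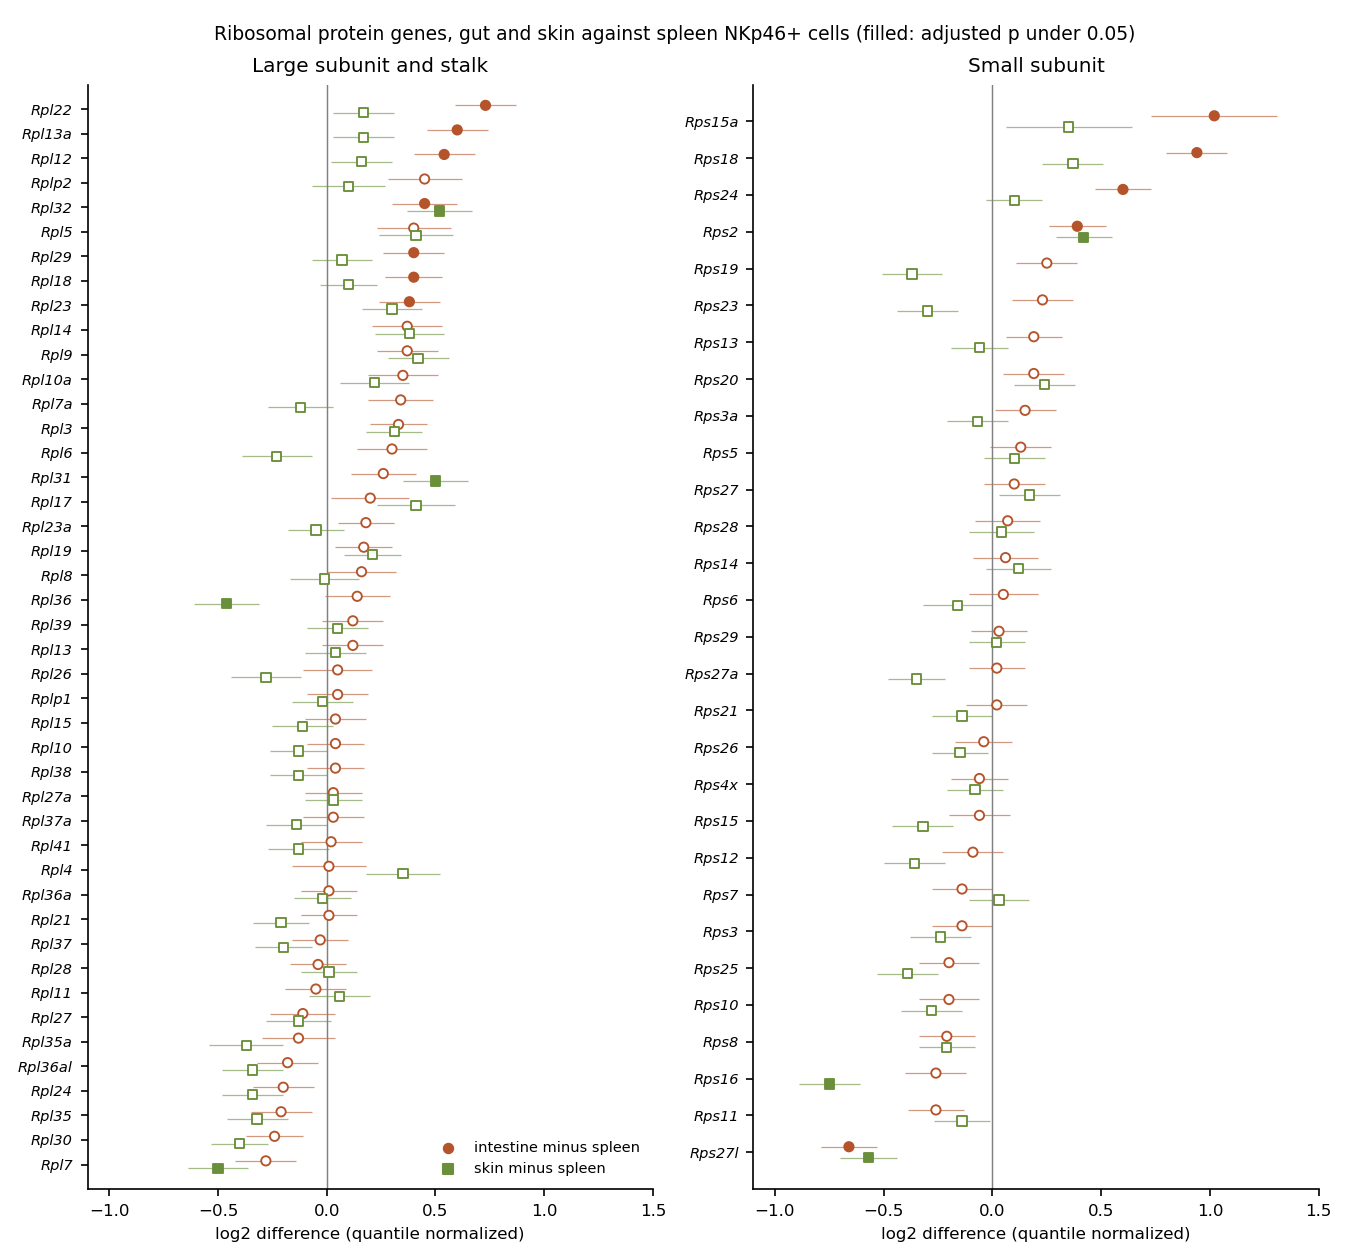
Log2 difference with its SE (bars) of the tested ribosomal protein genes that are reported by name, intestine minus spleen (circles) and skin minus spleen (squares), quantile normalized, with filled symbols for an adjusted p under 0.05. Most symbols lie between -0.5 and 0.5 and are open, and Rps27l alone is filled on the left in both comparisons.

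In intestine against skin, 11 ribosomal protein genes rose, 0 fell and 64 did not pass, where 16.5% of all genes were called higher and 22.4% lower. At an unadjusted p under 0.05 limma gave 16 higher and 0 lower, but 18 and 2 with the deposited scaling and 23 and 2 with median scaling. With a trend in the prior variance, at the adjusted threshold, it gave 15 and 0. The median log2 difference was 0.15, which is 0.22 above that of all genes, and 66 of the 75 lay within 0.50 of 0. With the deposited scaling 13 rose and 0 fell, where 13.3% and 29.5% of all genes did, and the median was 0.23, or 0.41 above that of all genes. The deposited signals of both intestine arrays were above those of both skin arrays for 55 genes and below for 2, against 21.5% and 46.7% of all genes. Fewer members were called without either skin array, and fewer of all genes were called in these fits as well. Without intestine replicate II some members were also called lower. The member median lay between 0.12 and 0.17 without each array.

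Rps16 and Rpl36 were lower in skin than in both other tissues, with log2 differences of 0.49 and 0.61 in intestine against skin (limma adjusted p = 0.0162 and 0.00828). Rps16 lost this call without skin replicate II (limma adjusted p = 0.0801), and Rpl36 without skin replicate I (0.0556). Rps18, Rpl22, Rpl13a and Rps24 were higher in intestine than in both other tissues, with log2 differences of 0.57, 0.56, 0.43 and 0.50 against skin. For Rps18 this is the dim probe, and the bright one written RPS18 had 9950 and 13800 in intestine, against 12000 and 13200 in skin, with a log2 difference of -0.19 (limma adjusted p = 0.375). Rps24 was not called against skin with the deposited scaling (0.34, limma adjusted p = 0.0781). Rps18, Rpl22 and Rps24 lost this call without skin replicate I (limma adjusted p = 0.0607, 0.0506 and 0.0784), and Rpl13a lost it without either spleen array, without intestine replicate II or without either skin array (limma adjusted p = 0.0682 to 0.133). Rps23, a protein of the decoding centre, had 1430 and 1500 in intestine, against 950 and 1010 in skin, and differed by 0.54 ± 0.14 (SE, limma adjusted p = 0.0107), which was not called without skin replicate I (0.0599). Rpl6 (0.53) and Rpl7a (0.46) were also called, and lost the call without intestine replicate I (limma adjusted p = 0.101 and 0.185) and without skin replicate II (0.156 and 0.111), Rpl7a also without either spleen array or skin replicate I (0.0697 to 0.13).

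Rps19, whose loss is the most frequent cause of Diamond-Blackfan anemia in humans, had signals of 7.86 and 12.9 in intestine, 1.6 and 2.6 in skin, and 7.24 and 5.62 in spleen. The probe was not well above background on either skin array. Its level in intestine was at least 1.15-fold higher than in skin, counted from the lowest detected signal of the skin arrays. That bound itself was not tested. The call (limma adjusted p = 0.00528) belongs to the full log2 difference of 0.62, which uses the undetected skin signals. The probe was kept through its detection in intestine and spleen, and the other Rps19 probe was detected on no array. The other dim members were Rpl36al, at 5.87 and 4.67 in intestine, 3.72 and 4.21 in skin, and 9.51 and 6.66 in spleen, detected on both spleen arrays, on 1 intestine array and on no skin array, and Rps15a. Rpl4 (10.3 to 29.5) and Rpl14 (18.3 to 30.5) were likewise dim on all 6 arrays.

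The members measured at the highest signals did not pass the test after quantile normalization. Rpl41, the smallest ribosomal protein, had 15900 and 19500 in intestine, 14500 and 16400 in skin, and 11200 and 12300 in spleen. Rps29 had 16500 and 16300 in intestine, 17000 and 14600 in skin, and 11200 and 11100 in spleen. In both genes every intestine and skin array was above every spleen array on the deposited scale. The log2 differences from spleen were 0.02 in intestine and -0.13 in skin for Rpl41, and 0.03 and 0.02 for Rps29, and none passed (limma adjusted p = 0.512 to 0.913). With the deposited scaling the differences in intestine were 0.58 for Rpl41 (limma adjusted p = 0.00655) and 0.56 for Rps29 (limma adjusted p = 0.0051). Rps6, whose protein is phosphorylated by the S6 kinases downstream of mTORC1, had 5230 and 3950 in intestine, 4110 and 3540 in skin, and 4000 and 3440 in spleen. Its arrays overlapped between the tissues, and no comparison passed under either scaling.

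In the 3 comparisons together, 22 of the 75 genes were called in at least 1 and 53 in none. Intestine exceeded both other tissues in 4 genes, and skin was below both in 3. These combined counts were not made over all genes. In the single comparisons 49.2% of all genes were called in intestine against spleen, 24.3% in skin against spleen and 38.8% in intestine against skin. Of the ribosomal protein genes 17.3%, 10.7% and 14.7% were called. Of the paralog pairs, Rpl3, Rpl10, Rpl36a and Rpl39 passed in no comparison with quantile normalization, and Rpl7 passed in skin against spleen. The subunits gave close medians in intestine against spleen, 0.12 for the large and 0.05 for the small subunit genes, in skin against spleen, 0 and -0.08, and in intestine against skin, 0.15 and 0.16.

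Some probes outside the rule measure the same family. The older symbol Arbp, which stands for Rplp0, had signals of 93.1 and 70.6 in intestine, 78 and 68.2 in skin, and 48.6 and 49.8 in spleen on its detected probe. Both gut and both skin arrays were above the spleen arrays, with log2 differences of 1.0 in intestine (limma adjusted p = 4.64e-04) and 0.70 in skin (limma adjusted p = 0.0123). Fau, which encodes a ubiquitin-like protein joined to a small subunit protein, had 6300 and 6250 in intestine, 4710 and 4980 in skin, and 5910 and 5510 in spleen. It differed by -0.17 in intestine (limma adjusted p = 0.305) and -0.45 in skin against spleen (limma adjusted p = 0.0351), and the deposited scaling did not give the call in skin (limma adjusted p = 0.191). In all, 187 further probes are described in the files as similar to a ribosomal protein, and 60 of them were detected on all 6 arrays. RefSeq lists 309 pseudogenes under symbols of the rule. Probes of Rpl31 (24 pseudogenes), Rps12 (23) and Rpl21 (15) could share signal with such copies, so the values of single genes are uncertain there. The same holds for other members with pseudogenes, among them the called Rpl7a (14), Rps19 (13), Rps2 (12), Rpl36 (10) and Rps15a (8).

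Genes that build and run the ribosome were counted in the same fit. Over all genes, 20.9% were called higher and 28.3% lower in intestine against spleen, and 12.7% and 11.5% in skin against spleen. With the deposited scaling these shares were 14.6% and 42.3% in intestine and 12.1% and 22.4% in skin. In intestine against spleen, 21 of 53 tested ribosome biogenesis genes rose and 8 fell, and in skin 19 rose and 3 fell, with medians of 0.25 and 0.23, although the deposited scaling gave 8 higher and 12 lower in intestine and 6 higher and 9 lower in skin. Wdr43, an assembly factor of the small subunit, had 288 and 284 in intestine, 194 and 186 in skin, and 125 and 109 in spleen, and rose by 1.54 in intestine (limma adjusted p = 1.3e-05) and 0.89 in skin (limma adjusted p = 0.00279). Pes1, an assembly factor of the large subunit, had 25.5 and 32.2 in intestine, against 91.1 and 91.3 in spleen, and differed by -0.85 (limma adjusted p = 0.00157). Of 13 RNA polymerase I genes and factors, 4 rose and 3 fell in intestine and 3 rose in skin against spleen, and with the deposited scaling 3 rose and 6 fell in intestine and 1 rose in skin. Myc, a transcription factor that drives ribosome production, had 152 and 68.7 in intestine, 18.8 and 20.8 in skin, and 22.1 and 24.3 in spleen, with a log2 difference of 1.94 in intestine against spleen (limma adjusted p = 1.86e-04). Both intestine arrays were above the other 4.

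Of 39 translation initiation genes, 10 rose and 3 fell in intestine and 4 rose and 3 fell in skin against spleen, and of 12 elongation genes 2 rose and 2 fell in intestine and 2 rose and 1 fell in skin. With the deposited scaling the balance of the initiation genes turned, to 4 higher and 10 lower in intestine and 1 higher and 8 lower in skin, and the elongation genes gave 5 higher and 2 lower in intestine and 4 and 2 in skin. Etf1, the translation release factor, had 1620 and 1230 in intestine, 697 and 691 in skin, and 559 and 428 in spleen, and rose in both (1.65 and 0.69, limma adjusted p = 3.91e-05 and 0.0196). Eef2k, the kinase that slows elongation by phosphorylating eEF2, had 6.65 and 11.4 in intestine, 25.4 and 33.8 in skin, and 66.6 and 65.9 in spleen, and fell by 1.45 in intestine (limma adjusted p = 3.79e-05) and by 0.60 in skin (limma adjusted p = 0.02). Of 26 genes of mTORC1 and TOP mRNA control, 5 rose and 8 fell in intestine and 4 rose and 3 fell in skin. With the deposited scaling 13 fell in intestine and 1 rose and 6 fell in skin. Over all genes 20.9% rose and 28.3% fell in intestine and 12.7% and 11.5% in skin, and the 26 genes lay near these shares. With the deposited scaling the shares over all genes were 14.6% and 42.3% in intestine and 12.1% and 22.4% in skin. Tia1, an RNA-binding protein that represses TOP mRNAs under starvation in human cells, had 8.12 and 18.1 in intestine, against 86.7 and 71.9 in spleen, and differed by -1.39 (limma adjusted p = 2.89e-04).

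Mitochondrial ribosomal proteins, which translate the few mRNAs of the mitochondrial genome, were the other large set of ribosomal genes. In intestine 7 of 70 rose and 25 fell against spleen and 2 rose and 27 fell against skin, with medians of -0.25 and -0.36, and with the deposited scaling 4 rose and 49 fell against spleen and 2 rose and 41 fell against skin. In skin against spleen 8 rose and 3 fell, with a median of 0.04, but with the deposited scaling 2 rose and 10 fell, with a median of -0.18. Over all genes 20.9% rose and 28.3% fell in intestine against spleen, 16.5% and 22.4% in intestine against skin, and 12.7% and 11.5% in skin against spleen. With the deposited scaling these shares were 14.6% and 42.3%, 13.3% and 29.5%, and 12.1% and 22.4%. Their probes summed to 12300 on both intestine arrays to 3 digits, 16400 and 16500 in skin, and 17400 and 19000 in spleen. Mrps33 had 385 and 403 in intestine, against 1050 and 818 in spleen, and differed by -1.01 (limma adjusted p = 4.41e-04). Mrps6 went the other way, with 328 and 249 in intestine, against 124 and 118 in spleen, and a log2 difference of 1.49 (limma adjusted p = 3.09e-05). The cytosolic and mitochondrial sets were not tested against each other.

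**Figure D5:**
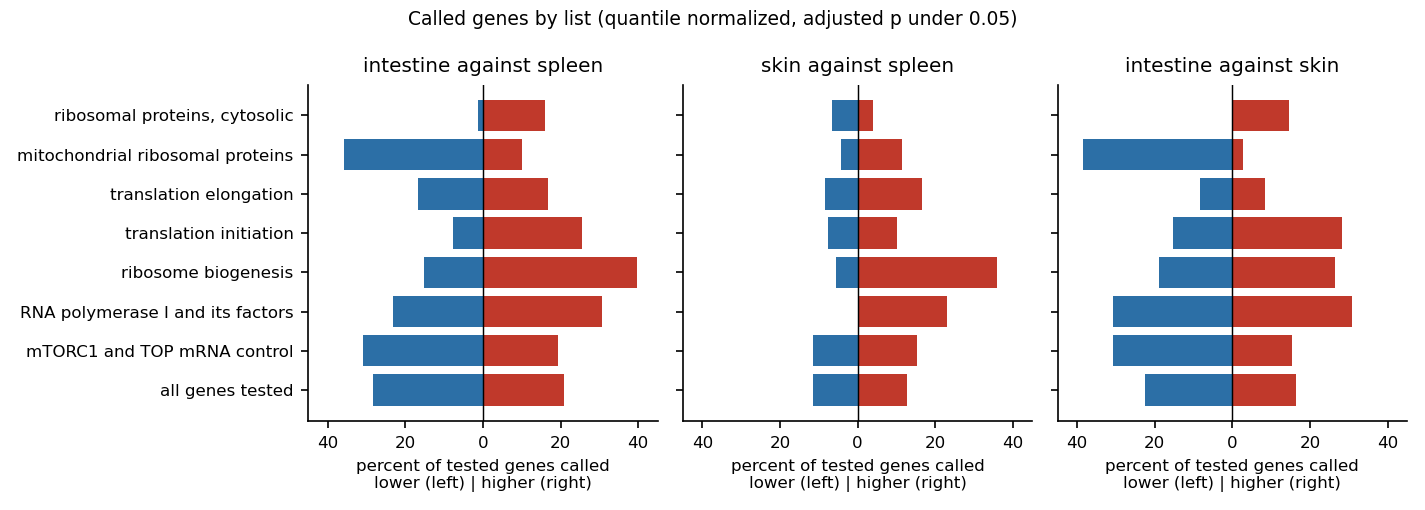
Percent of tested genes called higher (right, red) and lower (left, blue) in 3 comparisons for the cytosolic ribosomal proteins, 6 related lists and all genes tested, quantile normalized. In intestine against spleen 12 of 75 cytosolic ribosomal protein genes were higher and 1 lower, against 7 and 25 of 70 mitochondrial ones.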

How the data were processed

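RNA of the sorted cells was extracted with a micro kit, amplified, labelled with biotin and hybridised to mouse bead arrays, per the labels' protocols, and BeadStudio 1.5.1.3 is named by the submitters' processing notes. Per the file headers, the deposited signal intensity is the average bead signal of a probe. Its values show a subtracted background and a common mean of 83.1 per array, steps that no label or header describes. Each probe also has a detection p-value, deposited beside the signal. A further deposited table holds the same intensities before that scaling. On the unscaled table the array means were 82.7 and 50.9 in intestine, 43.7 and 53.4 in skin, and 137 and 131 in spleen, so signal over background was greatest in spleen.

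Here an offset of 16 was added, log2 taken and the arrays quantile normalized over 46643 probes (limma 3.58.1, R 4.3.3). Kept probes had a symbol and were detected (p under 0.01) on the 2 arrays of any tissue. The probe with the highest mean deposited signal stood for each symbol, giving 14187 genes. Lists were matched through RefSeq symbols (GRCm38.p6, names only). A mean per tissue was fitted to all 6 arrays with lmFit and eBayes, with 3 residual degrees of freedom, a prior of 6.93 and a prior SD of 0.15, followed by Benjamini-Hochberg adjustment over all genes. The number of arrays limits the precision, and the median SE was 0.15. The fit was tested on simulated data. No set test was run. Some genes are counted but not reported here by name. The members, lists and tests were chosen with earlier results of these data known. Genes were named by rule: per comparison the 6 largest called differences each way, the stalk, reference and paralog genes, the 3 brightest and the 3 dimmest members, members whose probes disagree in sign, and per related list the 2 largest called each way, of which a part is given, picked with their values in sight. The remaining called members, Rpl4, Rpl14 and probes outside the symbol rule were named after their values were seen.

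The slide was read from the array names. Replicate deviations of the same number correlated across genes by 0.15 (spleen and intestine), 0.21 (spleen and skin) and 0.11 (intestine and skin), so the numbers were taken as pairs and the slide as a block was fitted as an alternative. Other alternatives were the scaling, the background correction, the offset, the filter, the mean over probes, a trend in the prior variance and leaving out each array. Members given by the RPS18 probe, or without those of mean signal under 100, were added after seeing the data.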

Additional observations from a re-analysis of the deposited data

How the results depend on the processing

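In intestine against spleen the 13 ribosomal protein genes called became 32 with median scaling, 33 with the deposited scaling, 21 with an offset of 64 and 8 with no filter on detection, and lay between 5 and 14 when each array was left out. The calls were 31 higher and 1 lower with median scaling, 32 and 1 with the deposited scaling, and 16 and 5 with the offset of 64. The median of 0.05 became 0.28 with median scaling, 0.31 with the deposited scaling and 0.10 with the mean of all kept probes, and lay between 0.01 and 0.13 without each array. In skin against spleen the 8 called became 18, 19, 20 and 2 under the same 4 alternatives and 17 with a trend in the prior variance, and 0 to 16 without each array. There, 12 were higher and 6 lower with median scaling, 15 and 4 with the deposited scaling, and 7 and 13 with the offset of 64. The median of -0.05 became 0.05 with median scaling and 0.12 with the deposited scaling, and lay between -0.09 and 0 without each array. In intestine against skin the 11 called became 20 with an offset of 64 and 3 to 14 without each array, and the median of 0.15 became 0.27 with median scaling and 0.23 with the deposited scaling, and lay between 0.12 and 0.17 without each array. Counting all member probes moved the share of signal to 12.6% and 13.3% in intestine, 11.3% and 11.4% in skin, and 9.74% and 9.53% in spleen. Rplp1 in skin against spleen, at -0.02, was 0.43 with the deposited scaling. The cause of these moves was not tested, except that fewer arrays or more genes enter by construction. Leaving out an array also moved the counts over all genes. With the replicate block (the slide) the counts were 14, 9 and 12, and all 13, 8 and 11 genes called without it were still called, so the pairing changed no call reported. In intestine against spleen Rps18 and Rps27l were called in all 15 alternatives to the fit, but the probe written RPS18 in capitals, put in the place of Rps18, was not called (limma adjusted p = 0.402) and left 12, 8 and 10 called in the 3 comparisons, and leaving out members of mean signal under 100, Rps18 among them, left 10, 8 and 8. With the deposited scaling the probe written RPS18 was called in intestine against spleen (0.60, limma adjusted p = 0.00992). Rps19 was called in intestine against skin in the alternatives that tested it and kept dim members. Within slide 1 and slide 2 the member median was 0.01 and 0.13 in intestine against spleen, -0.10 and -0.01 in skin against spleen, and 0.16 and 0.12 in intestine against skin. Signal over background, lower in intestine and skin than in spleen, limits the dim probes there.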
